A study of Mus musculus with 17 samples.

Results

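The mitosis and spindle genes described here are 42 genes whose products carry a cell through division, from entry into mitosis to the separation of the daughter cells. They were chosen by symbol, and a gene was read from the brightest of its probes in the platform annotation. Of the 42 genes, 33 were measured among 10246 genes in all. No probe of the annotation carried the symbol Ccnb1 or Mki67, and the probes of Ccnb2, Nek2, Bub1, Cenpe, Nuf2, Hmmr and Kif20a were above background on fewer than 3 arrays, so these 9 genes have no values below. Because a gene could enter through the group in which it was bright, the 33 are the detected genes and not all 42. Ccna2, Cdc25c, Ttk, Cenpf and Ube2c reached 3 arrays only through the effector arrays (Teff, below). The filter thus favoured a high value of these genes in Teff, and the counts against Teff include them.

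RNA of mouse CD8 T cells was hybridised to 17 Illumina arrays, 1 array per sample. All groups derive from OT-I mice of C57Bl/6 background, 2 to 6 months old, whose CD8 T cells carry a transgenic receptor for an ovalbumin peptide. Naive cells came from the spleen (naive 1, 2, 11, 12 and 13). LSEC, the endothelial cells that line the liver sinusoids, served to prime the partial memory cells (Tpm 4, 7, 14 and 15) in a coculture. Effector cells (Teff) were activated by dendritic cells and gave Teff 6, 8, 10, 16 and 17; the labels name a coculture with splenic dendritic cells for all but Teff 8, whose source is given as spleen. Memory cells (memory 3, 5 and 9) were isolated from the spleen 3 months after infection with Listeria monocytogenes carrying ovalbumin. Naive and memory cells were thus taken from animals, whereas Tpm and most Teff came out of cultures, and the labels give no culture time for either, so priming cell and time in culture cannot be told apart. All cells were isolated or sorted before lysis. Nothing states that arrays of a group stem from separate animals. By Xist and Eif2s3y, described below, naive 13, Tpm 14 and Teff 17 had the pattern of male cells. The other arrays of their groups did not, so naive cells, Tpm and Teff each come from more than 1 animal. Beyond that the number of animals is not known, so the p-values speak of the spread among these arrays, part of which may be technical.

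A resting naive or memory T cell transcribes few mitotic genes, and a T cell that has met its antigen divides rapidly. Most mitotic genes are transcribed late in the cell cycle, in G2 and M phase. Their promoters are kept silent in resting cells by the DREAM complex and are driven in dividing cells by the MuvB core together with B-Myb and FoxM1, which act through an element called the cell cycle genes homology region (CHR), and by NF-Y, which binds CCAAT boxes. Their transcripts therefore serve widely as a readout of the share of dividing cells. In bulk RNA, a smaller share of dividing cells and less transcript per dividing cell cannot be told apart.

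Values are log2 of the background-corrected, quantile-normalised intensity plus 16, a scale that understates the change of dim genes, and levels of different genes cannot be set against each other because each has its own probe. Groups of values are given in the order of array numbers above. A gene was called higher or lower, and is said to have risen or fallen, where the adjusted p was below 0.05 and the log2 difference reached 1, which is 2-fold; p-values are limma's, Benjamini-Hochberg adjusted over the 10246 genes, and errors of differences are standard errors (SE). The comparisons share arrays, so they are not independent of each other.

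Before the genes, 3 facts on the arrays bear on the results. Mean signal was 227 to 471 on 15 arrays, but 140 on memory 3 and 96.7 on memory 5, where 29.9% and 19.9% of probes were above background and 23 and 14 of the 33 mitosis genes. Tpm 14 stood apart from the other Tpm arrays: with naive 13 and Teff 17 it had no Xist signal above background and a high Eif2s3y (4.21 and 10.88), the pattern of male cells, and the summed corrected intensity of its dendritic cell markers was 9395 and lay between 522 and 589 on Tpm 4, 7 and 15. Of 10 measured T-cell markers 9 were above background on all 17 arrays, among them Cd8b1, Cd3d, Cd3e and Cd3g. Cd5 was above background on 3 arrays, none of them Teff or memory, and the probe of Cd8a on no naive or Teff array.

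The mitosis genes formed a graded series in which Teff were highest, Tpm lay between Teff and naive cells, and memory cells were lowest or close to naive cells. In Teff, 31 of 33 were higher than in naive cells (of all genes, 13.8% were higher) and 0 were lower (11% of all genes). In Tpm, 19 of 33 were higher than in naive cells (8.68% of all genes) and 0 were lower (4.99%). Against Teff, 31 of 33 were lower in Tpm (7.99% of all genes) and 0 were higher (7.73%). With no filter on dim probes, 31 of 40 genes were higher in Teff than in naive cells (7.3% of all genes). Without that filter, 18 of 40 were higher in Tpm than in naive cells (4.48%), and 31 of 40 were lower in Tpm than in Teff (4.11%). Against memory cells, 23 of 33 were higher in Tpm (9.93% of all genes) and 31 of 33 in Teff (15.8%), and 0 were lower in either (5.34% and 11%). The count for Tpm was 13 (5.76% of all genes) when only Tpm and memory cells were fitted. It was 18 (3.71%) with the authors' processed values and 25 (44.2%) with each array scaled to a common median. In memory cells 6 of 33 were lower than in naive cells (7.22% of all genes) and 0 were higher (5.78%); with each array scaled to a common median the count was 16 of 33, where 35.6% of all genes were lower. At an unadjusted p under 0.05, limma placed 0 genes lower in Tpm than in naive cells and 0 higher in Tpm than in Teff, and 1 lower in Teff than in naive cells. It placed 1 gene lower in Tpm and 1 lower in Teff than in memory cells, and 0 higher in memory than in naive cells.

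**Figure D1:**
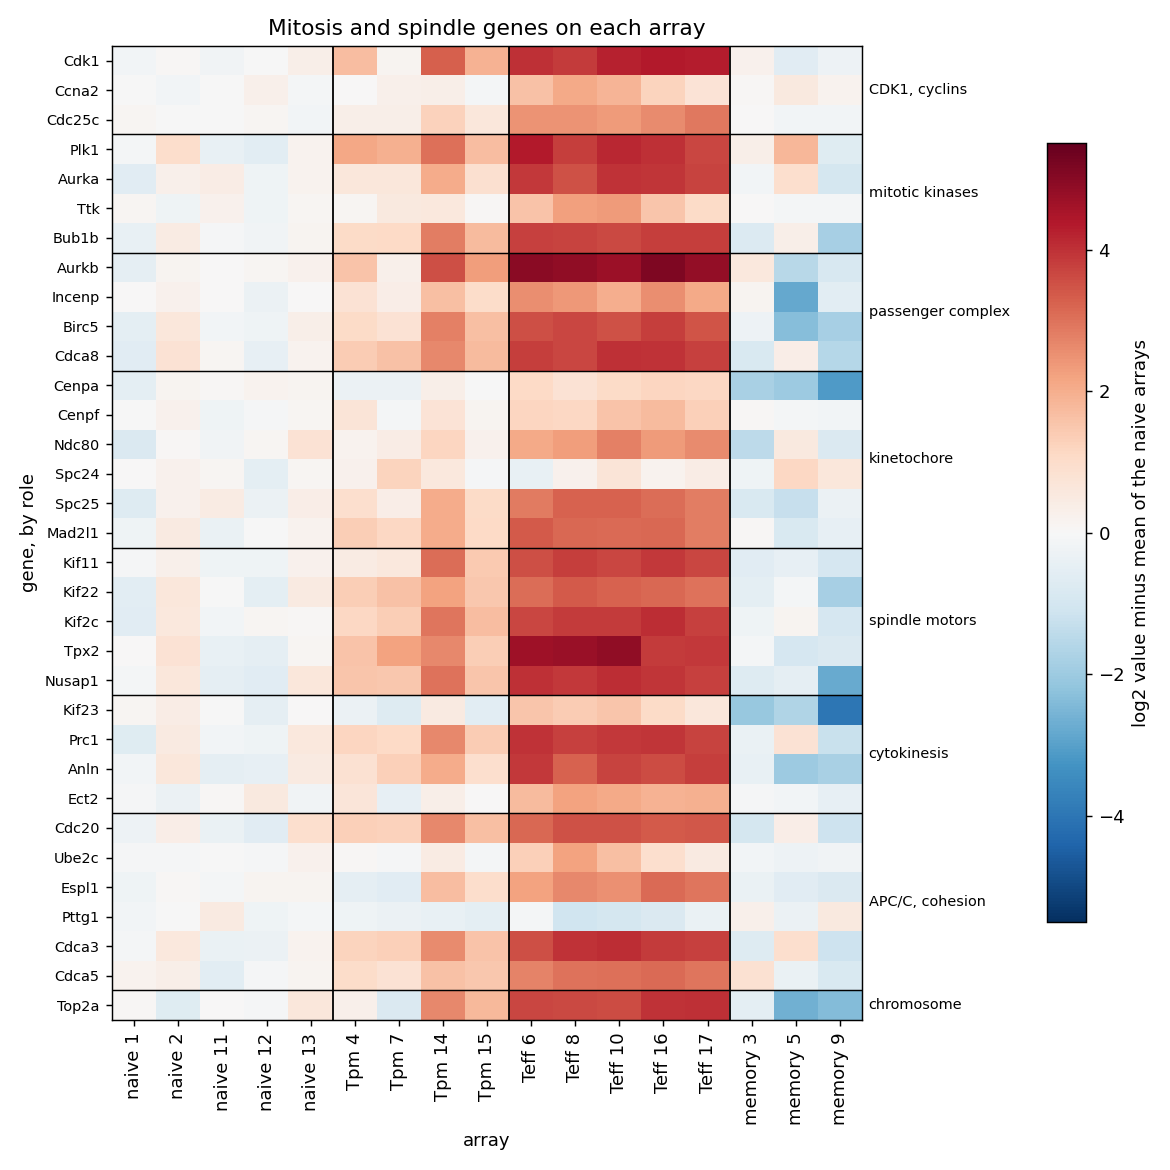
Each row is 1 of the 33 measured mitosis and spindle genes, grouped by role, and each column 1 array; colour gives the log2 value minus the mean of the 5 naive arrays. The Teff block is the most intense, the Tpm block is paler with Tpm 14 the darkest of its 4 columns, and the memory block is pale or blue.

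The median difference of the 33 genes was 3.17 between Teff and naive cells, where the median of all genes was 0.00, and 1.21 between Tpm and naive cells, where all genes had 0.06. The latter was 0.71 with the authors' processed values, 1.50 within arrays 12 to 17 and 0.66 within the other arrays, a split chosen after seeing the data. Between Tpm and Teff it was -1.93, against 0.04 for all genes. All arrays of the 2 groups stood clear of each other for 31 genes between Teff and naive cells (21.5% of all genes were higher without overlap), for 31 lower genes between Tpm and Teff (12.8%) and for 19 higher genes between Tpm and naive cells (15.2%). Against memory cells, 20 genes were higher in Tpm without overlap (16.5% of all genes) and 31 in Teff (22.3%). Only Spc24 and Pttg1 were not called in either comparison with Teff. The plot of differences from naive cells shows that the order memory, Tpm, Teff held for most genes. In Tpm, Top2a (0.97, limma adjusted p = 0.21) and Incenp (0.95, adjusted p = 0.102) missed both the minimum difference and the adjusted p.

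Some calls depended on how dim signals were treated. With the authors' processed values 13 genes were higher in Tpm than in naive cells (3.55% of all genes). Aurka (0.69), Spc25 (0.53), Kif11 (0.67), Kif2c (0.87), Anln (0.76) and Cdca5 (0.51) then fell short of the minimum difference. All but Kif2c of these fell short with an offset of 50 too, and Aurka, Spc25 and Kif11 did not pass the adjusted p with median scaling. With the authors' values the differences of Cdk1, Aurkb and Tpx2 between Tpm and naive cells were 1.12, 1.22 and 1.02, smaller by more than 1.5 times and still called. Between Tpm and Teff, and between Teff and naive cells, the dim genes Ccna2, Cdc25c, Ttk, Cenpf, Ect2 and Ube2c fell short with those values, which left 25 genes called in each. Of all genes, 4.32% were then lower in Tpm than in Teff, and 7.62% higher in Teff than in naive cells.

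**Figure D2:**
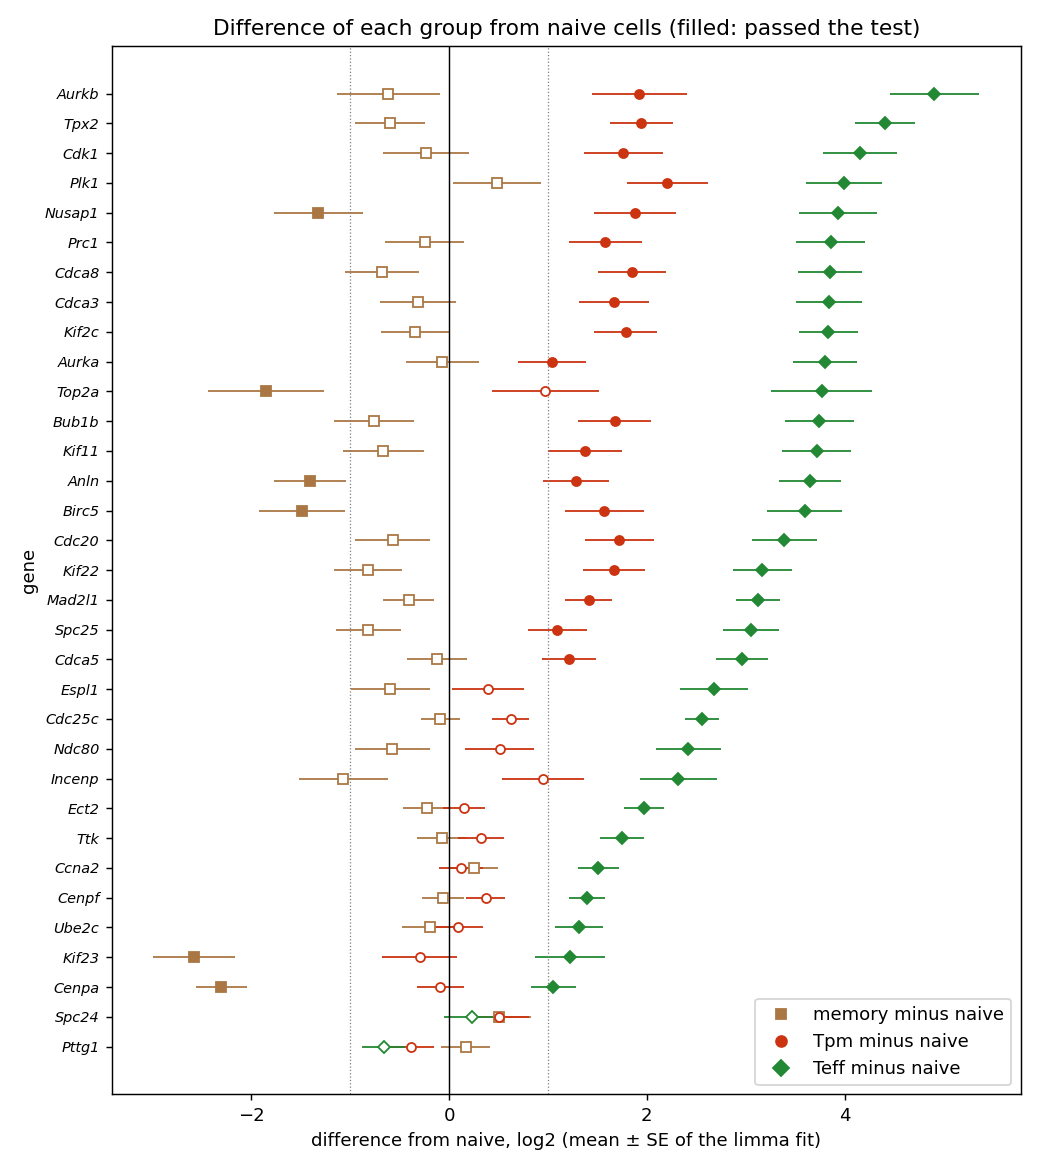
Differences of memory cells (squares), Tpm (circles) and Teff (diamonds) from naive cells on the log2 scale, with the standard error of the limma fit; filled marks passed the test and dotted lines mark a difference of 1. Teff differences run up to 4.91 (Aurkb), Tpm differences up to 2.21 (Plk1), and Kif23 and Cenpa have the lowest memory values (-2.58 and -2.30).

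The promoters of the listed genes, measured on the arrays or not, were searched for the elements named above. RefSeq promoter windows (build GRCm38.p6, 250 bases before to 50 after an annotated start, and the outermost window where a gene had several) were at hand for 35 of the 42 genes, and not for Ccna2, Cdc25c, Aurkb, Incenp, Spc24, Tpx2 and Kif20a. The CHR was searched as TTTGAA or TTCGAA and the CCAAT box as CCAAT, both on either strand and allowing overlap. A CHR match was present in 27 of 35 genes, against 19.5% of 27025 genes with a window, a CCAAT match in 26 of 35, against 38%, and both in 23 of 35, against 7.73%. Birc5, Nusap1, Mad2l1, Nuf2 and Pttg1 had neither in this window. For 5 genes the start used lies inside the annotated gene, by 3852 bases in Kif2c, 1482 in Pttg1, 646 in Cdca3, 375 in Ect2 and 316 in Aurka, so their windows do not show the gene's outer end; for the other genes the distance was at most 71 bases. Of 38 CHR matches, 10 lay in the 50 bases before the start (26.3%, against 13.8% of the matches of all genes) and 17 in the 50 bases after it (44.7%, against 11%). Of 63 CCAAT matches, 24 lay 51 to 100 bases before the start (38.1%, against 25.9%) and 18 in the last 50 bases before it (28.6%, against 18.5%).

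**Figure D3:**
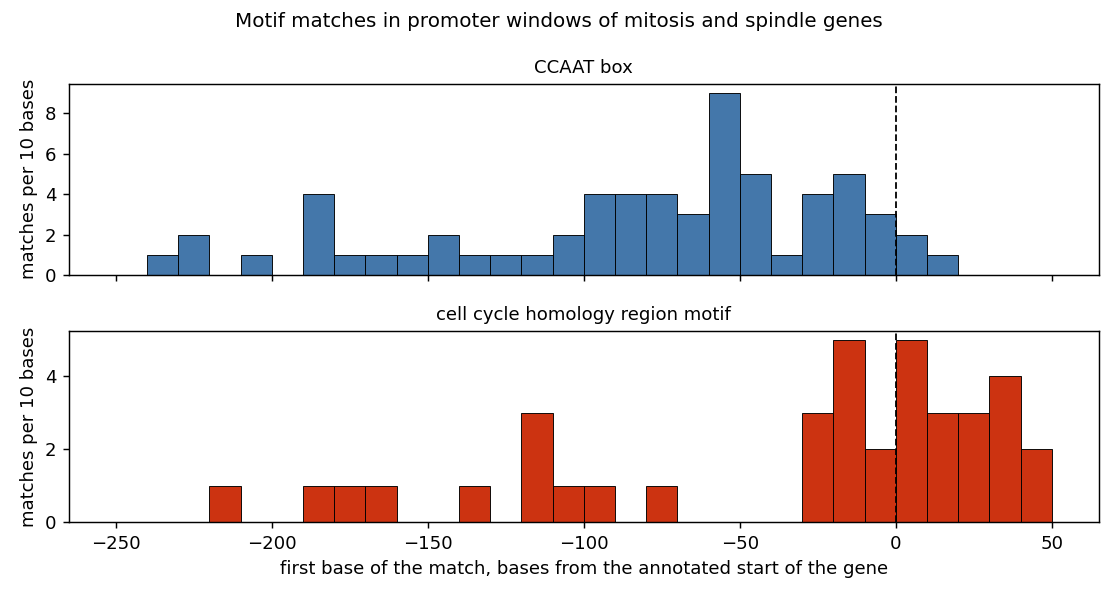
Number of CCAAT box matches (top) and CHR motif matches (bottom) per 10 bases in the promoter windows of 35 mitosis genes, 1 window a gene, by distance in bases from the annotated start (dashed line). CCAAT matches are most frequent upstream of the start, and CHR matches lie around and after it.

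The last 120 bases before the start are printed for 5 genes in which both elements lie in this stretch, chosen after the search to show their arrangement: the kinase gene Cdk1, the anaphase activator Cdc20, the motor Kif11, the protease Espl1 and the topoisomerase Top2a. Sequences run 5′ to 3′ on the gene's strand, with matches of either motif in capitals. A match describes the letters only.
Cdk1 (chr10:69352913-69353032, minus strand): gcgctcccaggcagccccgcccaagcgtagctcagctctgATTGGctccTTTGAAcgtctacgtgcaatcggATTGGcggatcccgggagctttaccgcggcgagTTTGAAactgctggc
Cdc20 (chr4:118437344-118437463, minus strand): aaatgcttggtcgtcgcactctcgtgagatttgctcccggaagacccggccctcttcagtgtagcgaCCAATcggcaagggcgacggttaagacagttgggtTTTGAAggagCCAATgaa
Kif11 (chr19:37376262-37376381, plus strand): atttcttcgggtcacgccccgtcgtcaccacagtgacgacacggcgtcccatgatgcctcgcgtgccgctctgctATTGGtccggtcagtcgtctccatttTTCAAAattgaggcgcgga
Espl1 (chr15:102296173-102296292, plus strand): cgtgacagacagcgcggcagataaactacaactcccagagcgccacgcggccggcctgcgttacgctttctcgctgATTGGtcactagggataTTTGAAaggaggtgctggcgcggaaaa
Top2a (chr11:99024190-99024309, minus strand): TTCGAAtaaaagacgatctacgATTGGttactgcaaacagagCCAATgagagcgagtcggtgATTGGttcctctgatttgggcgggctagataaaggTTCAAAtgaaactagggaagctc
In Cdk1 and Kif11 a CCAAT box precedes a CHR, with first bases at -48 and -15 in Cdk1 and at -45 and -19 in Kif11. Cdc20 has a CHR at -18 between CCAAT boxes at -53 and -8, and Espl1 a CCAAT box at -44 and a CHR at -27. Top2a holds matches over most of the stretch, the last a CHR at -23.

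Cdk1 is the kinase that, bound to cyclin A or B, starts mitosis. Its value was 5.76, 6.00, 5.76, 5.91 and 6.24 on the naive arrays and 7.63, 6.07, 9.22 and 7.85 in Tpm. Teff arrays gave 9.95, 9.79, 10.15, 10.31 and 10.23, and memory arrays 6.15, 5.32 and 5.63. Teff formed a tight group above all others, while Tpm spread from the top of the naive range (Tpm 7) to just under the Teff (Tpm 14). Cdk1 rose 17.8-fold from naive cells to Teff (4.15 ± 0.38 SE, adjusted p = 8.96e-08) and 3.39-fold to Tpm (1.76 ± 0.40 SE, adjusted p = 0.00304), and was 5.25-fold lower in Tpm than in Teff (adjusted p = 0.000179).

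Cdc25c, the phosphatase that activates Cdk1, was not above background on any naive or memory array. Its values were 4.42, 4.31, 4.30, 4.45 and 4.17 in naive cells and 4.64, 4.65, 5.59 and 4.93 in Tpm, with Tpm 14 and Tpm 15 above background. Teff values were 6.81, 6.82, 6.67, 6.92 and 7.22, and memory values 4.34, 4.18 and 4.20. Teff exceeded naive cells at least 4.14-fold (adjusted p = 2.5e-09), a bound set by the lowest value above background, and Tpm lay below Teff by 1.93 (adjusted p = 4.78e-07). The difference of 0.62 between Tpm and naive cells passed the adjusted p (0.0171) but not the minimum size. Ccna2, cyclin A2, was above background on Teff arrays only, at least 2.03-fold over naive cells and 2.06-fold over Tpm. Cdc25c and Ccna2 passed the filter only through Teff, which favoured a high value there. Their differences from Teff are not independent of that filter.

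The other mitotic kinases gave 3 of 4 measured genes higher in Tpm than in naive cells (8.68% of all genes). All 4 were lower in Tpm than in Teff (7.99%), among them Ttk, which passed the filter only through Teff. Plk1, the polo-like kinase that matures centrosomes and triggers cytokinesis, had naive values of 6.37, 7.45, 6.09, 5.91 and 6.68 and Tpm values of 8.63, 8.47, 9.51 and 8.21. Teff values were 10.84, 10.32, 10.65, 10.51 and 10.15, and memory values 6.81, 8.32 and 5.82. Each Tpm array exceeded each naive array and lay below each Teff array, and the 3 memory arrays scattered most. Plk1 had the largest Tpm difference of the 33 genes, 2.21 ± 0.41 SE (4.62-fold, adjusted p = 0.000565), and lay 1.79 ± 0.41 SE under Teff (adjusted p = 0.0026).

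Bub1b, which encodes the checkpoint protein BubR1, showed naive values of 6.78, 7.64, 7.14, 7.01 and 7.34 and Tpm values of 8.22, 8.27, 10.01 and 8.90. In Teff it stood at 10.95, 10.90, 10.80, 10.98 and 11.00, an SD of 0.08 over 5 arrays, and in memory cells at 6.42, 7.49 and 5.35. The 3 levels did not overlap: Tpm were 3.19-fold above naive cells (adjusted p = 0.00258) and 4.21-fold below Teff (adjusted p = 0.000351). Aurka, the Aurora kinase of the spindle poles, was nearer to the threshold in Tpm (1.04 ± 0.34 SE, adjusted p = 0.031) and was not called there without naive 1 (0.88, adjusted p = 0.0839), naive 12 (0.98, adjusted p = 0.0652) or Tpm 14 (0.70, adjusted p = 0.127). Median scaling, the authors' values, an offset of 50, no filter on dim probes and array weights ended the call as well. Ttk, the checkpoint kinase Mps1, passed the filter only through Teff. It was at least 2.59-fold higher in Teff than in naive cells and differed by 0.32 between Tpm and naive cells (adjusted p = 0.36).

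The chromosomal passenger complex, which corrects wrong attachments of chromosomes to the spindle, consists of the kinase Aurora B (Aurkb), the scaffold Incenp, survivin (Birc5) and borealin (Cdca8). All 4 genes were higher in Teff than in naive cells (13.8% of all genes) and lower in Tpm than in Teff (7.99%). Over naive cells, 3 rose in Tpm (8.68%). Aurkb had naive values of 5.37, 5.98, 5.87, 5.95 and 6.09 and Tpm values of 7.42, 6.13, 9.39 and 8.16. Teff stood at 10.83, 10.72, 10.56, 10.99 and 10.70, and memory cells at 6.42, 4.31 and 4.98. Tpm 7 lay next to the highest naive array, and Tpm 14 lay 3.26 above Tpm 7. The rise to Teff was the largest of the 33 genes, 4.91 ± 0.45 SE (30.0-fold, adjusted p = 1.06e-07), and Tpm lay 7.92-fold below Teff (adjusted p = 0.000122).

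Birc5 read 6.36, 7.51, 6.75, 6.68 and 7.22 in naive cells and 7.97, 7.70, 9.69 and 8.54 in Tpm. Teff gave 10.45, 10.60, 10.40, 10.69 and 10.36, and memory cells 6.65, 4.55 and 5.06. Tpm cleared the naive arrays (1.57 ± 0.40 SE, adjusted p = 0.00685), and memory 9 lay below the naive range. On memory 5 Birc5 was not above background, and the lowest value above background there, 6.42, lay inside the naive range. All 3 kept Birc5 probes agreed, with Tpm over naive cells by 1.31 to 1.57. For Cdca8 the naive values were 6.41, 7.85, 7.14, 6.60 and 7.25 and the Tpm values 8.46, 8.67, 9.68 and 8.80. Its Teff values were 10.87, 10.74, 11.06, 11.02 and 10.82 and its memory values 6.22, 7.41 and 5.49. Tpm were 3.61-fold above naive cells (adjusted p = 0.000636) and 4.00-fold below Teff (adjusted p = 0.000251). Incenp differed by 0.95 between Tpm and naive cells without passing the test (adjusted p = 0.102).

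**Figure D4:**
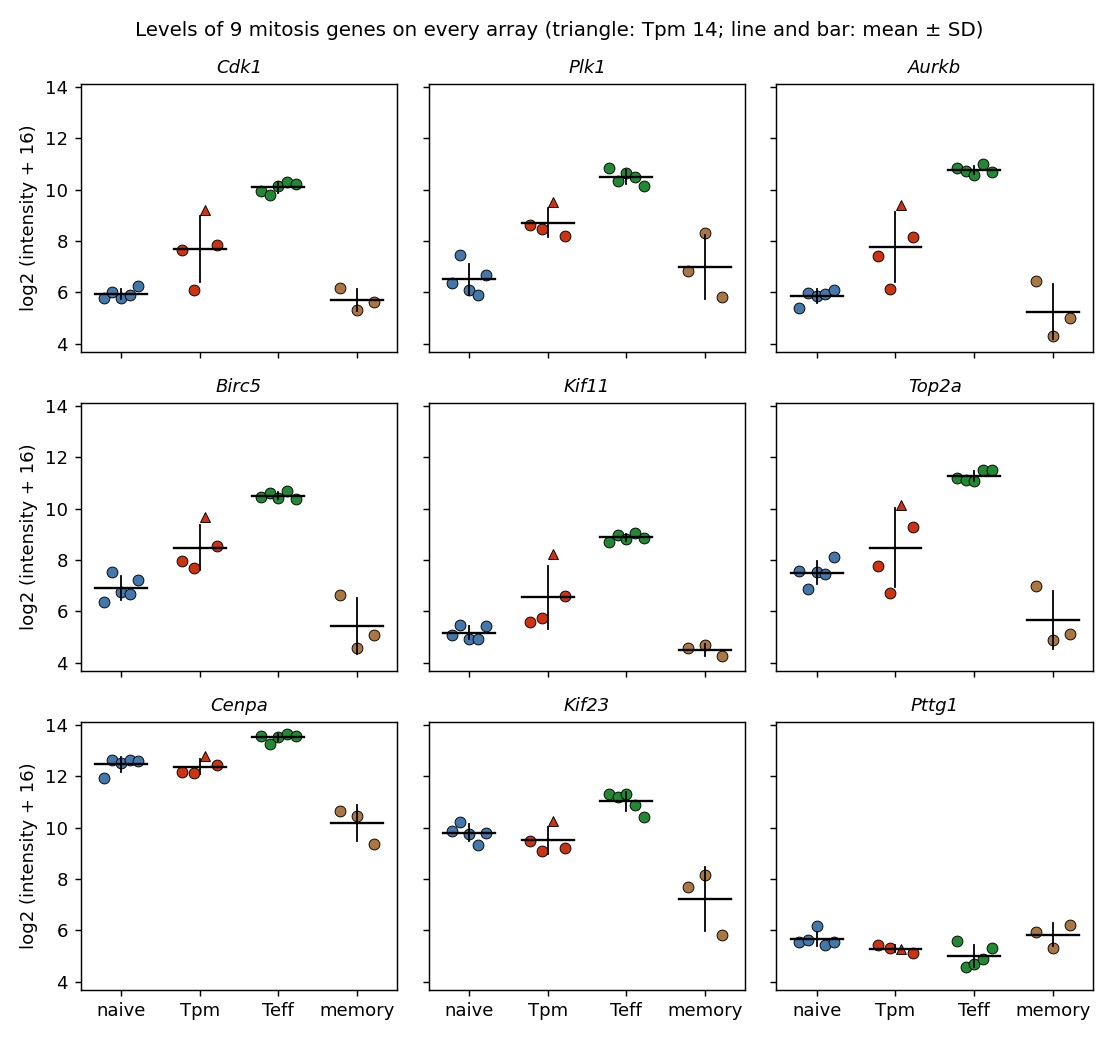
Levels of 9 mitosis genes on every array, on the log2 scale of intensity plus 16; lines and bars give the group mean ± SD and the triangle marks Tpm 14. Cdk1, Aurkb, Kif11 and Top2a spread over more than 2.5 units in Tpm, Cenpa and Kif23 are lowest in memory cells and overlap between naive cells and Tpm, and Pttg1 stays between 4.57 and 6.22 on all arrays.

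Of the kinetochore and checkpoint genes, 2 of 6 measured were higher in Tpm than in naive cells (8.68% of all genes). Against Teff, 5 of 6 were lower in Tpm (7.99%), among them Cenpf, which passed the filter only through Teff. Mad2l1 encodes Mad2, the protein that holds back anaphase until chromosomes are attached. Its naive values were 7.31, 8.05, 7.17, 7.52 and 7.73 and its Tpm values 8.92, 8.70, 9.61 and 8.64. Teff values were 10.94, 10.73, 10.66, 10.71 and 10.36 and memory values 7.62, 6.70 and 7.12. Groups were separate at each step, and Tpm were 2.66-fold above naive cells (adjusted p = 0.000234) and 3.28-fold below Teff (adjusted p = 2.71e-05).

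Cenpa, the histone H3 variant that marks centromeres, behaved otherwise. Its naive values were 11.92, 12.62, 12.51, 12.66 and 12.62 and its Tpm values 12.16, 12.14, 12.78 and 12.43, with overlap and a difference of -0.09 ± 0.24 SE (adjusted p = 0.848). Teff stood at 13.56, 13.28, 13.53, 13.64 and 13.59 and memory cells at 10.66, 10.47 and 9.36. Cenpa rose 2.08-fold from naive cells to Teff (adjusted p = 0.000879) and was 4.93-fold lower in memory cells than in naive cells (adjusted p = 4.61e-06). Without naive 1 the rise to Teff was 0.92, under the minimum difference. A second Cenpa probe was above background on all Teff arrays and on no naive or memory array, so the fall in memory cells rests on 1 probe.

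The Ndc80 complex, which binds microtubules at the outer kinetochore, was split. Ndc80 and Spc25 rose in Teff by 2.42 and 3.06 and were lower in Tpm than in Teff by 1.91 and 1.96, and Spc25 rose in Tpm over naive cells (1.10 ± 0.30 SE, adjusted p = 0.0109), though not without naive 1 (0.92) or Tpm 14 (0.79). Spc24, the partner of Spc25, differed by 0.23 between Teff and naive cells on its brightest probe (adjusted p = 0.557). Its second kept probe was above background on 5 Teff arrays, 1 Tpm array and no naive or memory array, a pattern the brightest probe did not show. Cenpf, which passed the filter only through Teff, was at least 2.05-fold higher in Teff than in naive cells.

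Of the spindle motors and microtubule-associated proteins 5 of 5 measured genes rose in Tpm over naive cells (8.68% of all genes). Against Teff, 5 of 5 were lower in Tpm (7.99%). With the authors' values Kif11 and Kif2c were not called over naive cells. Nusap1, which bundles spindle microtubules, had naive values of 7.96, 8.71, 7.59, 7.47 and 8.70 and Tpm values of 9.63, 9.56, 11.06 and 9.62. Its Teff values were 12.10, 11.98, 12.16, 12.00 and 11.85 and its memory values 7.37, 7.60 and 5.34. Tpm lay clear of both neighbours, 3.68-fold above naive cells (adjusted p = 0.00248) and 4.14-fold below Teff (adjusted p = 0.00101). Averaged over its 3 kept probes, 2 of which were above background on 1 Tpm array and no naive array, the difference between Tpm and naive cells was 0.71 and under the minimum difference.

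Kif22, a motor that pushes chromosome arms toward the spindle equator, read 7.03, 8.22, 7.58, 7.06 and 8.08 in naive cells and 8.93, 9.21, 9.83 and 9.07 in Tpm. Teff stood at 10.68, 10.95, 10.85, 10.77 and 10.57 and memory cells at 7.05, 7.48 and 5.79. The spread of Tpm was narrow (0.90), and they were 3.17-fold above naive cells (adjusted p = 0.000696) and 2.83-fold below Teff (adjusted p = 0.00135). Kif11, the motor Eg5 that pushes spindle poles apart, spread far more in Tpm, with 5.60, 5.73, 8.24 and 6.60 against naive values of 5.08, 5.46, 4.93, 4.92 and 5.42. Teff values were 8.71, 8.96, 8.83, 9.06 and 8.84, and memory values 4.56, 4.69 and 4.24, none of them above background. Kif11 rose by 1.37 ± 0.37 SE in Tpm over naive cells (adjusted p = 0.0105); without Tpm 14 the difference was 0.81, under the minimum. In Teff it was at least 10.9-fold higher than in memory cells.

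Tpx2, which nucleates microtubules and activates Aurora A, rose by 1.95 ± 0.32 SE in Tpm (adjusted p = 0.000213) and by 4.41 ± 0.30 SE in Teff (adjusted p = 3.06e-09). Kif2c, a kinesin that depolymerises microtubule ends, rose by 1.79 and 3.84 (adjusted p = 0.000392 and 1.36e-08), and was not above background in memory cells, over which Tpm stood at least 2.98-fold and Teff at least 12.3-fold higher.

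Of the 4 measured genes of the central spindle and cytokinesis, 2 rose in Tpm over naive cells (8.68% of all genes). All 4 were lower in Tpm than in Teff (7.99%). Prc1, which crosslinks antiparallel microtubules in anaphase, had naive values of 7.27, 8.42, 7.78, 7.71 and 8.53 and Tpm values of 9.13, 9.03, 10.58 and 9.33. Teff were at 11.94, 11.70, 11.84, 11.86 and 11.66 and memory cells at 7.59, 8.75 and 6.73. Tpm were 2.99-fold above naive cells (adjusted p = 0.00381) and 4.86-fold below Teff (adjusted p = 0.000133), with no overlap on either side. Anln, the contractile ring protein anillin, rose by 1.29 in Tpm (adjusted p = 0.00766), but fell short of the minimum with the authors' values (0.76), an offset of 50 (0.98) and the mean of its kept probes (0.75). Ect2, the exchange factor that activates RhoA for cleavage, differed by 0.15 in Tpm (adjusted p = 0.669), a difference that turned to -0.02 without Tpm 4, and rose by 1.97 in Teff.

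Kif23, the motor of the centralspindlin complex, resembled Cenpa. Its naive values were 9.89, 10.23, 9.76, 9.32 and 9.80 and its Tpm values 9.46, 9.07, 10.27 and 9.20, overlapping and different by -0.30 ± 0.38 SE (adjusted p = 0.63). Teff gave 11.32, 11.21, 11.30, 10.87 and 10.42 and memory cells 7.70, 8.15 and 5.81. Kif23 was 2.34-fold higher in Teff and 5.97-fold lower in memory cells than in naive cells (adjusted p = 0.00894 and 0.000192). Its 4 kept probes disagreed: the next brightest gave 1.53 for Teff minus naive and -2.04 for memory minus naive cells, whereas another, above background on all 17 arrays, gave -0.32 and 0.95. With the mean of its kept probes Kif23 was not called in Teff against naive cells (0.69) or in Tpm against Teff (-0.88).

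In the set of the anaphase-promoting complex, cohesion and separase, 3 of 6 genes rose in Tpm over naive cells (8.68% of all genes). Against Teff, 5 of 6 were lower in Tpm (7.99%), among them Ube2c, which passed the filter only through Teff. Cdc20, which activates the anaphase-promoting complex, had naive values of 6.92, 7.56, 6.85, 6.56 and 8.11 and Tpm values of 8.53, 8.48, 9.85 and 8.84. Teff values were 10.36, 10.72, 10.70, 10.58 and 10.60, and memory values 6.24, 7.57 and 6.08. Tpm exceeded naive cells 3.30-fold (adjusted p = 0.00122) and lay 3.18-fold under Teff (adjusted p = 0.00131). Cdca3, which helps remove the mitotic inhibitor Wee1, read 6.97, 7.66, 6.70, 6.74 and 7.24 in naive cells and 8.29, 8.36, 9.64 and 8.63 in Tpm. Teff stood at 10.61, 11.04, 11.13, 10.90 and 10.83, and memory cells at 6.37, 7.98 and 5.91. The steps were 1.67 from naive cells to Tpm (adjusted p = 0.00176) and -2.17 from Teff to Tpm (adjusted p = 0.000139). Cdca5, the cohesin protector sororin, rose by 1.21 in Tpm (adjusted p = 0.00319), but fell short of the minimum with the authors' values (0.51) and an offset of 50 (0.75).

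Espl1 encodes separase, the protease that cuts cohesin, and Pttg1 encodes securin, its inhibitor. Espl1 had naive values of 4.77, 5.06, 4.92, 5.17 and 5.18 and Tpm values of 4.53, 4.40, 6.73 and 5.97. Tpm 14 and Tpm 15 lay above the naive range. On Tpm 4 and Tpm 7 Espl1 was not above background. The lowest values above background on these arrays, 4.85 and 4.83, lay inside the naive range. Teff values were 7.23, 7.66, 7.52, 8.13 and 7.96 and memory values 4.65, 4.41 and 4.22. Espl1 rose by 2.68 ± 0.34 SE in Teff (adjusted p = 4.96e-06), and the difference of 0.39 in Tpm (adjusted p = 0.496) was -0.05 without Tpm 14. Pttg1 read 5.53, 5.62, 6.16, 5.42 and 5.56 in naive cells, 5.42, 5.32, 5.25 and 5.11 in Tpm, 5.57, 4.57, 4.69, 4.86 and 5.29 in Teff, and 5.94, 5.32 and 6.22 in memory cells. It was the 1 gene with a negative difference between Teff and naive cells, -0.66 ± 0.21 SE, which passed the adjusted p (0.0174) and not the minimum size. Ube2c, the ubiquitin-conjugating enzyme of the complex, was above background on all Teff arrays, 1 Tpm array and no naive array. It passed the filter only through Teff, and was at least 1.87-fold higher in Teff than in naive cells.

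Top2a, the topoisomerase that untangles chromosomes before anaphase, showed the widest Tpm range of the 33 genes, 3.44. Its Tpm values were 7.77, 6.72, 10.16 and 9.28, against naive values of 7.57, 6.86, 7.54, 7.45 and 8.12. Teff stood at 11.18, 11.12, 11.08, 11.50 and 11.51 and memory cells at 6.97, 4.88 and 5.12. Tpm 4 and Tpm 7 lay within or below the naive range, and Tpm 14 and Tpm 15 lay above it. Top2a was 6.94-fold lower in Tpm than in Teff (adjusted p = 0.000663), and its difference of 0.97 from naive cells was not called (adjusted p = 0.21). That difference was called without Tpm 7 (1.56, adjusted p = 0.0238) and with the mean of its kept probes (1.08, adjusted p = 0.028).

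The 4 Tpm arrays were far from alike. Tpm 14 was the highest Tpm array for 30 of 33 genes, where it was the highest for 26.2% of all genes, and the exceptions were Spc24, Ect2 and Pttg1. Relative to the naive mean, the median of the 33 genes was 0.83 on Tpm 4, 0.56 on Tpm 7, 2.05 on Tpm 14 and 1.08 on Tpm 15, against 2.97 to 3.26 on the Teff arrays. Tpm 7 was the lowest Tpm array for 15 of 33 genes, where it was the lowest for 27.0% of all genes. The median SD of the genes was 0.55 in Tpm and 0.21 in Teff, where all genes had 0.34 and 0.25. It was 0.35 in naive cells and, wider than in Tpm, 0.82 in memory cells, where all genes had 0.28 and 0.41. Even so, no Tpm array reached the lowest Teff array for any gene other than Spc24 and Pttg1. Without Tpm 14, 16 of 33 genes were higher in Tpm than in naive cells (8.39% of all genes), and Aurka, Spc25 and Kif11 were no longer called.

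**Figure D5:**
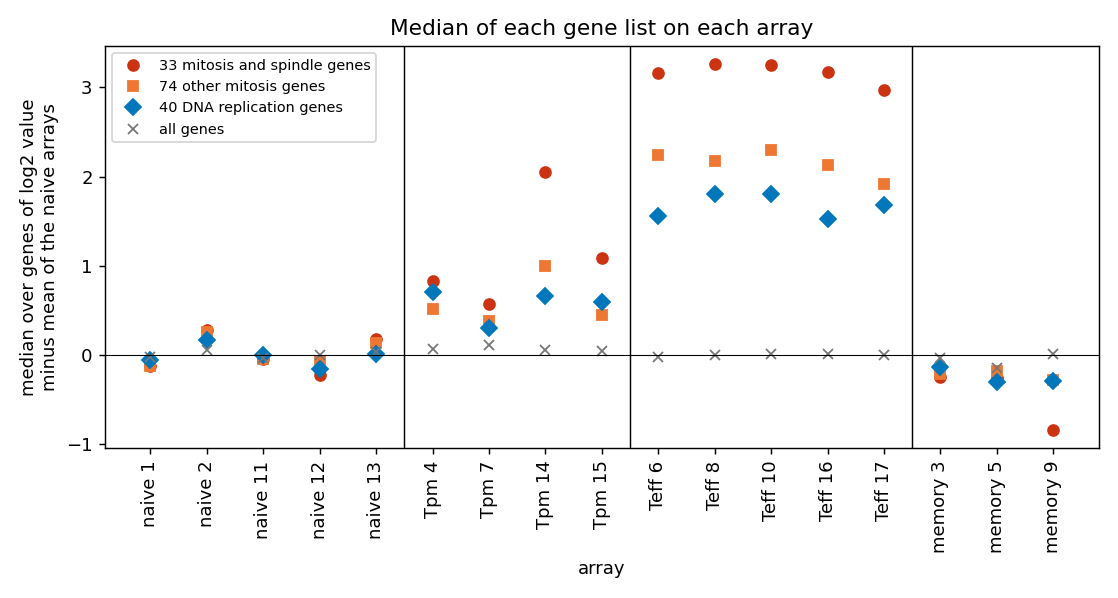
Median over each gene list of the log2 value minus the mean of the naive arrays, for each of the 17 arrays; the lists are the 33 mitosis and spindle genes, 74 other mitosis genes, 40 DNA replication genes and all genes. On Tpm 14 the mitosis genes reach 2.05 and the replication genes 0.66, near the 0.70 of Tpm 4.

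Genes of DNA replication did not share the excess of Tpm 14. Of 40 measured replication genes, 11 were highest on Tpm 14 and 17 on Tpm 4, and their median stood 0.05 above the mean of the other Tpm arrays on Tpm 14, against 1.03 for the 33 mitosis genes and 0.68 for 74 other mitosis genes, 48 of which were highest there. Markers of other cells also moved with Tpm 14. Of 8 measured macrophage markers 8 were highest there, with summed intensities of 3707 on Tpm 14 and 95.6 to 235 on the other Tpm arrays, and of 6 measured dendritic cell markers 5 were highest there. Clec4f and Itgam among the macrophage markers, and Itgax, Xcr1, Cd209a and Ccl22 among the dendritic cell markers, were not above background on any Tpm array. Their part in the level of mitosis genes on Tpm 14 was not tested.

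Endothelial and stromal markers set all Tpm arrays apart from the other groups. Of 17 measured endothelial markers 12 were higher in Tpm than in naive cells, with summed intensities of 5418 to 8410 in Tpm, 265 to 611 in naive cells, 1148 to 1647 in Teff and 2042 to 3198 in memory cells, and only Kdr of the 20 listed was not above background on any Tpm array. Of 7 measured stromal markers 6 were higher, with sums of 1067 to 2251 in Tpm, 28.3 to 41.2 in naive cells, 28.8 to 41.7 in Teff and 36.8 to 310 in memory cells, while Lum, Pdgfrb and Reln were not above background on any Tpm array. Both sums were lowest on Tpm 14, the array with the highest mitosis genes. Their part in the difference between Tpm and naive cells was not tested. Erythroid markers summed to 6020 to 35216 in naive and 5905 to 15163 in memory cells and to at most 38.7 in Tpm and Teff.

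Other genes of the pathway were counted over lists chosen with results of these data known. Of all genes, Tpm exceeded naive cells in 8.68%, lay below them in 4.99% and lay below Teff in 7.99%. Of 74 measured other mitosis genes, Tpm exceeded naive cells in 20 and lay below them in 1, and 53 were lower in Tpm than in Teff. The microtubule-binding Gtse1 (2.02), the motor Kif15 (2.00) and the Cdk phosphatase Cdkn3 (1.97) had the largest called differences between Tpm and naive cells. The spindle protein Ckap2l (-2.68), the cohesin protector shugoshin (Sgo1, -2.57) and the acetyltransferase Esco2 (-2.44), which establishes cohesion, had the largest between Tpm and Teff. Ckap2l and Sgo1 were above background on 2 of 5 naive arrays.

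Of 16 measured transcription factors and regulators of the G2/M programme, Tpm exceeded naive cells in 3 (8.68% of all genes) and lay below them in 1 (4.99%). In 5 of the 16, Tpm lay below Teff (7.99% of all genes). Foxm1, the activator of mitotic genes, differed by -2.36 ± 0.25 SE between Tpm and Teff (adjusted p = 1.86e-06), with means of 5.51 in naive cells, 5.91 in Tpm and 8.27 in Teff. Lin54, the MuvB subunit that contacts the CHR, was lower in Tpm than in naive cells (-1.08, adjusted p = 0.00414) and than in Teff (-1.71, adjusted p = 5.98e-05). Tfdp1, the partner of E2F factors, was higher in Tpm than in naive cells (1.48, adjusted p = 0.000195). Cdkn1a, the Cdk inhibitor p21, was also higher in Tpm than in naive cells (1.68, adjusted p = 0.018) and lower than in Teff (-2.08, adjusted p = 0.004). Its Tpm values were 6.34, 6.90, 9.23 and 6.98, against 4.51 to 6.45 in naive cells. Tpm 14 thus stood apart, and Tpm 4 lay inside the naive range. Of 40 replication genes, Tpm exceeded naive cells in 10 (8.68% of all genes) and lay below them in 2 (4.99%), and 25 were lower in Tpm than in Teff (7.99%). Mcm10, which activates replication forks, Tk1 and Tyms, which supply thymidine nucleotides, rose by 2.00, 1.99 and 1.61 in Tpm, and Tk1 (-2.33), the DNA ligase Lig1 (-2.22) and Mcm10 (-2.19) were furthest below Teff.

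Between memory and naive cells, Birc5, Cenpa, Nusap1, Kif23, Anln and Top2a were called lower in memory cells, by -1.49, -2.30, -1.32, -2.58, -1.41 and -1.85. Birc5 and Top2a were above background on 2 memory arrays and Anln on 1. Anln read 5.70 to 6.83 in naive cells and 5.78 on memory 3, inside that range. On memory 5 the lowest value above background, 6.42, also lay inside it, so only memory 9 placed Anln below naive cells. Of the genes called lower, Cenpa and Kif23 had each memory array below each naive array, and 5 genes in all were separate in this direction (12% of all genes). The other 3 were Kif11, Espl1 and Ube2c, which were not called and were above background on no memory array, Ube2c on no naive array either, so that the order of its values carries no information. Naive values were 4.92 to 5.46 for Kif11 and 4.77 to 5.18 for Espl1. The lowest value above background was 5.06 on memory 3 and 6.42 on memory 5, inside or above these ranges. Memory 3 and memory 5 therefore cannot place Kif11 or Espl1 below naive cells. Single arrays decided several calls: without memory 5, Birc5 differed by -1.05 (adjusted p = 0.138) and Top2a by -1.46 (adjusted p = 0.153). Memory 9, whose mean signal lay in the range of the other groups, had a median of -0.84 over the 33 genes relative to naive cells, and the dim memory 3 and memory 5 had -0.25 and -0.27. With memory 9 as the only memory array, whose spread is then assumed to be that of the other groups, 8 genes were called lower (4.81% of all genes), Kif23 by -3.99 and Nusap1 by -2.75; without memory 9 Nusap1 differed by -0.60 (adjusted p = 0.285). When each array was instead scaled to a common median, 16 genes were called lower, but the median of the 33 genes was then -0.84 and that of all genes -0.87.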

How the data were processed

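Expression was measured on 17 Illumina arrays with 45281 probes, grouped by the labels. The deposited intensity values are linear signals, per the file headers, and their range shows that no background was taken off. The scanner is not given in the sources used. Probes were named through the platform annotation (34885 with 1 symbol, 18 with several, 10378 with none). From these deposited intensities, the background of an array was taken as the mode of its signals, with the root mean square below the mode as SD. Signals were corrected with normexp, raised by 16, quantile normalised and put on a log2 scale. Probes over the mode by 2.326 SD (one-sided p of 0.01) on at least 3 arrays were kept (19131), and the brightest kept probe stood for a gene (10246 genes). limma (version 3.58.1, R 4.3.3) fitted 1 coefficient per group over all arrays with empirical Bayes and 6 two-sided contrasts, and was tested on simulated data. Where the dimmer group had no array above background, a fold is written "at least N-fold": the brighter mean against, per array, the higher of the lowest value above background (4.69 to 5.06, and 6.42 on memory 5) and its own value. Values on every array are given for the 2 measured genes with the highest mean in each of 8 role groups and the 3 further genes with the widest Tpm range; from each list of other genes, the 3 largest called differences in each of the Tpm contrasts with naive cells and Teff are named. Members and lists were chosen with earlier results of these data known. The number of arrays limits the precision. No arrays were near-identical (largest correlation over genes 0.988). Alternatives covered scaling, offset, filter, probe choice, groups fitted, array weights and each array left out, and the authors' deposited second table of intensities, quantile normalised (column median 97.8, the order of probes on each array being that of the first table).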

Additional observations from a re-analysis of the deposited data

Results flagged for a closer look

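Within groups of 4 or 5 arrays, 6 of 99 gene and group combinations had 1 array far from the others by Dixon's criterion, which chance alone gives in about 1 in 20. Nusap1 was 11.06 on Tpm 14 and 9.56 to 9.63 on the other Tpm arrays. Cenpa was 11.92 on naive 1 against 12.51 to 12.66 on the other naive arrays, and 13.28 on Teff 8 against 13.53 to 13.64 on the other Teff arrays. Spc24 was 6.13 on naive 12 against 6.69 to 6.90. Ube2c was 4.68 on naive 13 against 4.35 to 4.39, values not above background. Pttg1 was 6.16 on naive 11 against 5.42 to 5.62.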

How the results depend on the processing

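The counts of Tpm against naive cells and Tpm against Teff stayed within 1.5 times under every alternative run: 13 (the authors' values) to 20 of 33 higher, and 25 to 31 lower. With the authors' values, 3.55% of all genes were higher in Tpm than in naive cells and 4.32% lower than in Teff. With 1 array left out the ranges were 16 to 20, 29 to 31, 20 to 24 (Tpm higher than memory), 30 to 31 (Teff higher than naive), 4 to 7 (memory lower than naive), 31 (Teff higher than memory) and 0 to 1 (Teff lower than memory, 1 without memory 5). Genes lower in memory than in naive cells numbered 16 with median scaling (35.6% of all genes). They numbered 2 with the authors' values, an offset of 50, the mean of all kept probes or array weights (2.86% to 6.37% of all genes). Median scaling moved the median of all genes to -0.87 there, 1.09 for Tpm against memory, 1.17 for Teff against memory and 0.19 for Teff against naive cells, and all-gene calls for memory against naive cells from 592 higher and 740 lower to 84 and 3651. Fitting only the 2 groups compared left 13 genes higher in Tpm than in memory cells (5.76% of all genes). Pttg1 was the 1 gene lower in Teff than in naive cells and than in memory cells with no minimum difference, and the 1 lower than in memory cells with array weights or without memory 3 and 5, where 1 array is left and is assumed to vary like the other groups. Among the gene differences given in the text, the sign turned for Cenpa, Tpm minus naive (0.080), and Spc24, Tpm minus Teff (-0.57), with the mean of all kept probes; for Plk1, memory minus naive (0.49), with median scaling (-0.82), without memory 3 and 5 (-0.68) and without memory 5 (-0.18; up to 1.07 without memory 9); and, Tpm minus naive, with 1 array left out, for Ect2 (-0.022 without Tpm 4, to 0.35), Ube2c (-0.034 without Tpm 14, to 0.15) and Espl1 (-0.052 without Tpm 14, to 0.72). The cause was not tested. Among all 198 gene differences, the most reversals under 1 setting were 5, without memory 9; Spc24, Teff minus memory (-0.27), was called at 1.26 with median scaling. Treating arrays 12 to 17 as a covariate, chosen after seeing the data, left 19 genes higher in Tpm than in naive cells (8.78% of all genes) and 31 lower than in Teff (8.39%). The median Tpm difference from naive cells was 1.50 within these arrays and 0.66 within the others. No paired analysis was possible because the groups share no replicate numbers. Slide as a block was not run, as the files give no slides.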
